A study of Homo sapiens with 39 samples.

Results

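The genes described here are 10 cell surface receptors for growth factors that are known from melanoma cells tolerating BRAF and MEK inhibitors, namely AXL, EGFR, ERBB2, MET, PDGFRB, PDGFRA, KIT, FGFR1, IGF1R and NGFR. They were taken by gene symbol from a table of 60671 gene identifiers, and all 10 symbols were found. The table gives TPM, a share of all transcripts in a library after correction for transcript length, in 39 RNA-seq libraries of A375 and WM115, which are established human melanoma lines. No drug is named in the labels of any group. The cells were wild type (WT) or belonged to clones carrying a deletion, labelled R1 or R4, of an enhancer region of SOX10, the transcription factor of neural crest and melanocytes. For A375 there were 4 WT libraries, then for R1 the clones 1.1 (3 libraries) and 1.2 (4), and for R4 the clones 4.1 (4) and 4.2 (3). For WM115 there were 4 WT libraries, with clones 1.1 (5 libraries) and 1.2 (3) for R1 and clones 4.1 (3) and 4.2 (3) for R4. A further WM115 clone, 1.3, with 3 libraries, has a title that points to R1 and a genotype label that says R4, so it was kept apart. Each group of edited cells is a single clone, and the labels do not say how many alleles carry the deletion. Library names of WM115 WT carry the tag wt5, and whether these WT cells are a single isolate is not stated. Nor do the labels say whether the libraries of a group are separate cultures. The p-values therefore measure only the spread between these libraries, which may be technical.

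All of these proteins except NGFR are receptor tyrosine kinases: a ligand outside the cell joins a pair of receptor chains, the chains phosphorylate each other, and adaptor proteins pass the signal to the ERK and AKT pathways. Because those pathways lie beside and below mutant BRAF, raised receptor levels are a known route by which melanoma cells withstand kinase inhibitors. NGFR has no kinase domain and is a low-affinity receptor for neurotrophins that marks neural crest cells. AXL, EGFR and PDGFRB are known as markers of melanoma cells that have lost the melanocytic programme, whereas KIT and NGFR belong to melanocytes and to neural crest.

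The libraries held between 14084 and 16140 genes with a TPM of at least 1, and read depth is unknown because the values carry no counts. SOX10 itself ranged from 381 to 876 TPM in A375 and from 9.56 to 553 TPM in WM115. The tyrosinase gene TYR was at most 0.023 TPM in A375, DCT at most 0.166 TPM, TYRP1 0.828 TPM and MLANA 0.976 TPM. PMEL had a median of 0.69 TPM there. Over all A375 libraries, 3 of the 8 melanocytic markers listed had a mean of at least 1 TPM. Among markers of other cell types, the T cell gene CD3E was at most 0.214 TPM and the keratin gene KRT1 at most 0.034 TPM in any library. The leukocyte list was carried by the lysosomal gene CD68, at 18.2 to 165 TPM in A375 and 225 to 757 TPM in WM115. Another keratin gene, KRT14, reached 30.4 TPM in A375, with a median of 12.3 TPM, and was at most 3.65 TPM in WM115. The collagen gene COL1A2 was at 365 to 857 TPM in every WM115 library, WT included, and at most 0.345 TPM in A375. One library stood apart: replicate 3 of WM115 clone 1.2 had 9.56 TPM of SOX10, against 279 and 272 TPM in the other libraries of that clone, and a summed level of 29.4 TPM over 8 melanocytic markers, against 661 TPM or more in the R4 clones. Differences of EGFR, AXL, MET, PDGFRB, IGF1R and NGFR between WM115 clone 1.2 and WT are therefore given with and without it. For FGFR1, PDGFRA and ERBB2 the log2 differences were 0.12, 0.44 and 0.17 with all libraries. The share of mitochondrial transcripts also split the libraries of a clone, from 0.968% to 4.92% in A375 and from 4.71% to 19.4% in WM115. In WM115 all 4 WT libraries lay on the high side, at 13.7% or more, as did clone 1.2, at 8.75% to 11.8%. Ribosomal protein genes made up 12% to 13.6% of TPM in WM115 WT and 16.2% to 18.6% in the WM115 R1 and R4 clones. Clone 1.3 had 17.6%, 18% and 11.5%. In the WM115 R1 and R4 clones, this shift and the edit cannot be told apart, and its part in the differences was not tested.

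Levels of the 10 receptors spanned a wide range, and since TPM is corrected for length they can be set beside each other. In A375 the highest medians over 18 libraries were those of AXL (153 TPM), IGF1R (106 TPM), MET (42.4 TPM), ERBB2 (39.9 TPM) and FGFR1 (21.6 TPM). PDGFRB (5.35 TPM), EGFR (5.11 TPM), NGFR (3.82 TPM) and PDGFRA (0.933 TPM) were lower. In WM115 the order over 21 libraries was led by NGFR (175 TPM) and AXL (122 TPM), followed by ERBB2 (30.9 TPM), IGF1R (28.4 TPM) and FGFR1 (17.3 TPM). MET (6.58 TPM), EGFR (3.45 TPM), PDGFRB (2.22 TPM) and PDGFRA (0.926 TPM) formed the lower end. KIT, the stem cell factor receptor of melanocytes, was listed at 0 in 38 of the 39 libraries and at 0.026 TPM in 1 library of A375 clone 1.2, while ACTB, GAPDH, EEF1A1, TBP and POLR2A were at 0 in no library. KIT was therefore not tested, and the remaining 9 receptors were tested in both lines.

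**Figure D1:**
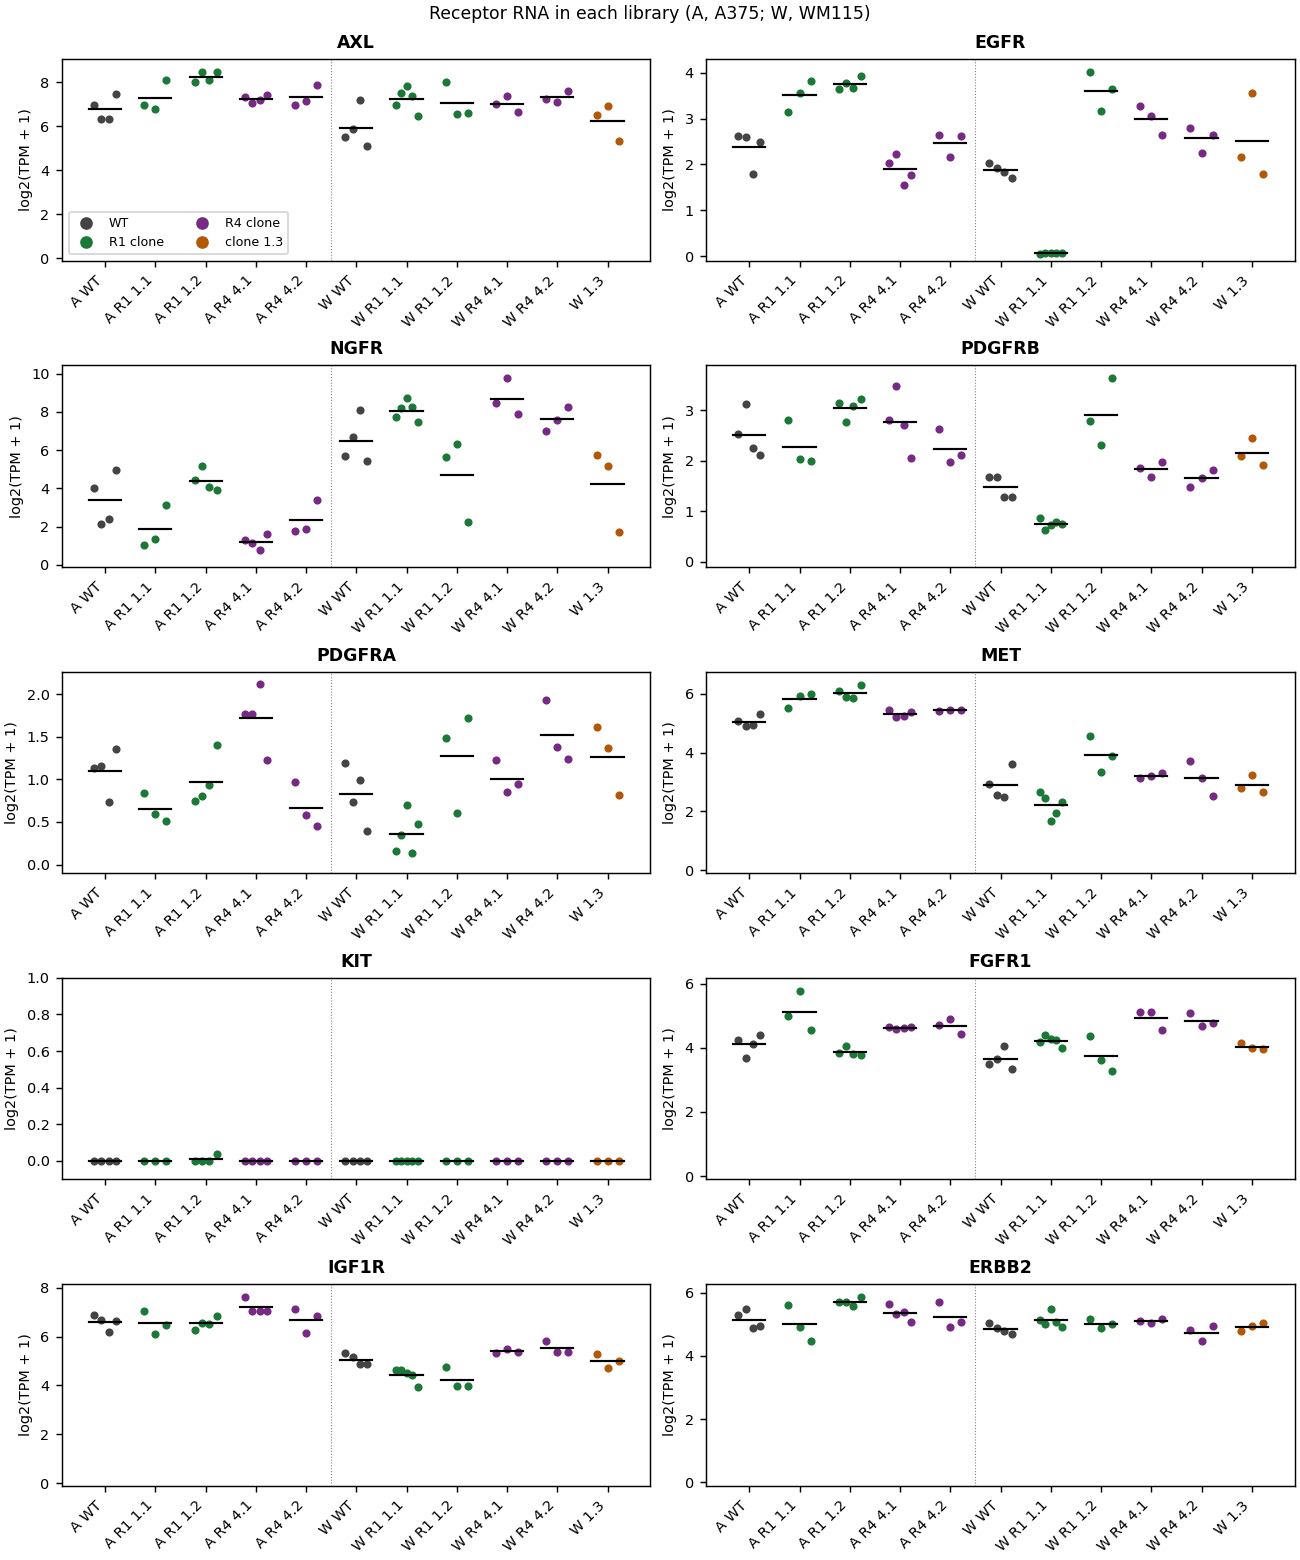
Level of each receptor in every library, as log2(TPM + 1), in 5 groups of A375 (left of the dotted line) and 6 groups of WM115. Each point is 1 library and each bar the group mean; EGFR in WM115 clone 1.1 lies near 0 in all 5 libraries, and NGFR spreads widest within groups.

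WT cells of A375 and WM115 differed in 4 receptors. Differences are of log2(TPM + 1), and a gene was called when its Benjamini-Hochberg adjusted p in limma was under 0.05 and the log2 difference was at least 1 in size. By that rule 20% of all 18662 genes tested differed between WM115 WT and A375 WT, and 4 of the 9 receptors tested did. NGFR was higher in WM115 WT, where its libraries had 50.6, 102, 277 and 41.6 TPM, than in A375 WT, with 15.4, 3.39, 4.24 and 30.6 TPM. Its groups did not overlap, and the log2 difference was 3.09 ± 0.774 (SE; limma, Benjamini-Hochberg adjusted p = 0.00129). MET, the receptor of hepatocyte growth factor, was lower in WM115 WT, at 6.58, 4.87, 4.67 and 11.3 TPM against 32.7, 29.1, 29.5 and 38.2 TPM in A375 WT. That difference was -2.15 ± 0.244 (SE; limma, Benjamini-Hochberg adjusted p = 8.8e-09). IGF1R, the receptor of insulin-like growth factors, had a mean of 32.5 TPM in WM115 WT and 96.2 TPM in A375 WT, a log2 difference of -1.53 (limma, Benjamini-Hochberg adjusted p = 5.9e-07). PDGFRB was lower by less, with a log2 difference of -1.03 (limma, Benjamini-Hochberg adjusted p = 0.0011), which was -0.82 without WT library 2 of A375 and -0.96 without WT library 3 or 4 of WM115 and then missed the minimum size. AXL had a difference of -0.84 that was not called, but without WT library 3 of WM115 it was -1.26 (limma, Benjamini-Hochberg adjusted p = 0.00569).

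Against the WT cells of their own line, 6 of the 9 clones had at least 1 receptor called, and 11 of the 12 calls were increases. Over all genes, calls higher and lower numbered 31 and 91 in A375 clone 1.1, and 429 and 240 in A375 clone 1.2. In WM115 they numbered 207 and 622 in clone 1.1, 764 and 529 in clone 1.2, 544 and 742 in clone 4.1, and 429 and 693 in clone 4.2. These counts are from fits without pairing. With the replicate number as a block, NGFR was also called, as lower, in A375 clone 4.1. The 4 WT libraries of a line serve every clone of that line, so these comparisons are not independent of each other. In A375, 1 of 9 receptors was called in clone 1.1 (0.731% of all genes tested) and 2 of 9 in clone 1.2 (4.01%), whereas none was called in clone 4.1 (0.653%) or clone 4.2 (0.473%). In WM115, 2 of 9 were called in clone 1.1 (4.88%), 3 of 9 in clone 1.2 (7.61%; 2 of 9 without library 3), 2 of 9 in clone 4.1 (7.57%), 2 of 9 in clone 4.2 (6.6%) and none in clone 1.3 (0.618%). EGFR was called in 5 of 9 clones, AXL in 3, FGFR1 in 2, and PDGFRB and MET in 1 each. NGFR, PDGFRA, IGF1R and ERBB2 were called in none by this rule. In WM115 PDGFRA had a WT mean of 0.812 TPM, from which even a complete loss would stay under the minimum size. Where none was called, the unadjusted p in limma was under 0.05 for 5 of the 9 in A375 clone 4.1, 2 in A375 clone 4.2 and 3 in WM115 clone 1.3. AXL had a positive difference in 9 of 9 clones, MET and FGFR1 in 8 (MET by 0.0008 in clone 1.3 of WM115), EGFR and ERBB2 in 7 and NGFR in 4. The median log2 difference over the receptors tested lay between -0.46 in WM115 clone 1.1 and 0.69 in WM115 clone 4.2, where the medians over all genes were -0.12 and -0.10.

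**Figure D2:**
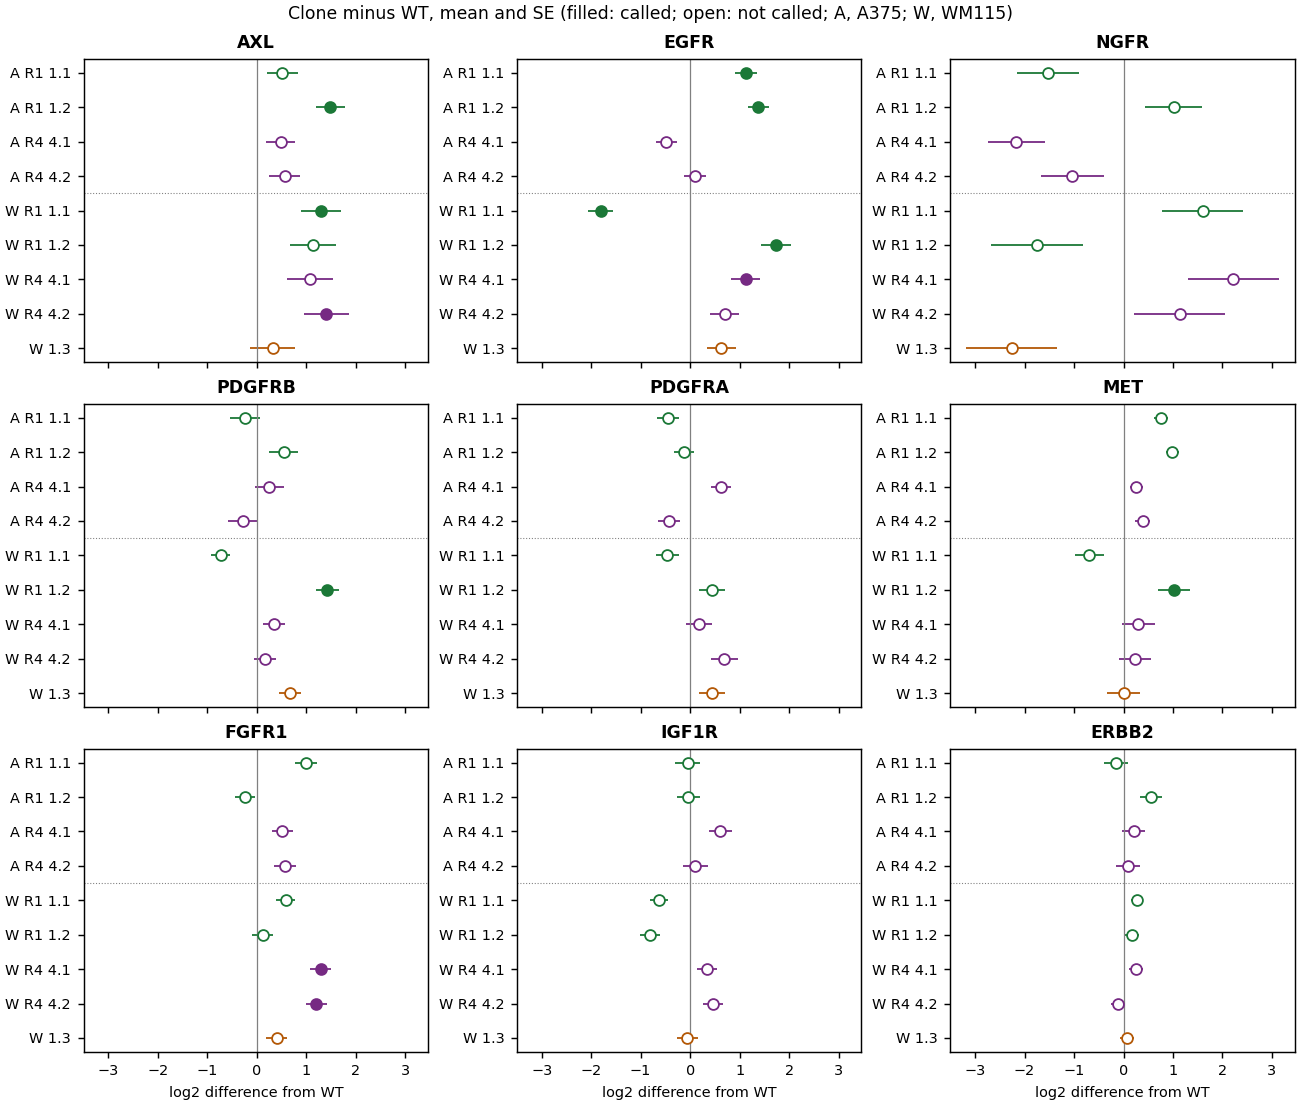
Log2 difference from WT of the 9 receptors tested, in 4 clones of A375 (above the dotted line) and 5 of WM115. Points are fitted differences, bars are standard errors, filled points were called and open points were not; EGFR is the receptor called most often, in 5 of 9 clones, with its single fall in WM115 clone 1.1.

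EGFR, the epidermal growth factor receptor (ENSG00000146648, GRCh38 chromosome 7, 55019021 to 55211628, plus strand), showed the largest contrast between clones. In WM115 WT it had 3.08, 2.77, 2.59 and 2.24 TPM. In WM115 clone 1.1 it had 0.034, 0.04, 0.048, 0.043 and 0.046 TPM, so that all 5 libraries lay far under the lowest WT library. In WM115 clone 1.2, which carries the same labelled deletion, it had 15.2, 7.92 and 11.6 TPM, all above the highest WT library. The mean in clone 1.1 was 63.3-fold lower than in WT, with a log2 difference of -1.81 ± 0.262 (SE; limma, Benjamini-Hochberg adjusted p = 0.000114), a scale on which the pseudocount of 1 TPM understates the fall of a gene this low. The mean in clone 1.2 was 4.33-fold higher, with a log2 difference of 1.74 ± 0.298 (SE; limma, Benjamini-Hochberg adjusted p = 0.000968). Without library 3 of clone 1.2 that difference was 1.72 (limma, Benjamini-Hochberg adjusted p = 0.00767).

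The promoter at the upstream of 2 RefSeq starts of EGFR is shown because the gene moved in opposite directions in these clones, together with those of PDGFRB and MET, which differed between the same clones in the same direction as EGFR. Each sequence is RefSeq's on GRCh38.p14, runs from 250 bases before to 50 bases after a transcription start, and is written 5′ to 3′ on the gene's strand. Capitals mark every match, on either strand, to 6 short motifs. These were the GC box with the letters GGGCGG, the AP-1 motif with the letters TGACTCA, and the motif of TEAD factors with the letters GGAATG. The others were a SOX motif with the letters ACAAAG, the M-box bound by MITF with the letters CATGTG, and the TATA box with the letters TATAAA.
EGFR, chr7:55018767-55019066, plus strand: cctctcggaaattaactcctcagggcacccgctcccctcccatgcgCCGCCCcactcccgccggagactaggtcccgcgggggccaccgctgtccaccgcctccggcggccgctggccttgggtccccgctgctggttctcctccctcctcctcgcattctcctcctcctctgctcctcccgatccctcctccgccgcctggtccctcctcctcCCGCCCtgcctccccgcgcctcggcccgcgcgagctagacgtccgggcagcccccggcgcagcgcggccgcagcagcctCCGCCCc
PDGFRB, chr5:150155796-150156095, minus strand: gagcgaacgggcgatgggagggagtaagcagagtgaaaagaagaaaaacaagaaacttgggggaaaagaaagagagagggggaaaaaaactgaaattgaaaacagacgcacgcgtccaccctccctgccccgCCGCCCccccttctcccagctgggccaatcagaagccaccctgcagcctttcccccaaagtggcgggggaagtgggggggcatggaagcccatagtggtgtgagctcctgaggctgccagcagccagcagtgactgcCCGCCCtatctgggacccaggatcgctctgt
MET, chr7:116671946-116672245, plus strand: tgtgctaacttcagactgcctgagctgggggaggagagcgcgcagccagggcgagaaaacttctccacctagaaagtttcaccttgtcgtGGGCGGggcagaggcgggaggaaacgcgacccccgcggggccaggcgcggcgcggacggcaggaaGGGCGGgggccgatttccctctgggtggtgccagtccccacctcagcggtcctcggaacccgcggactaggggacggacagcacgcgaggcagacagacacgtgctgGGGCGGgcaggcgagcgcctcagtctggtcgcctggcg
All capitals in these 3 windows are GC boxes, 3 in EGFR, 2 in PDGFRB and 3 in MET, and the other 5 motifs have no match in them. The window at the downstream RefSeq start of EGFR (chr7:55109589-55109888, plus strand) differs from these. It is 42% G and C and holds no GC box, with 2 AP-1 matches, 1 TEAD match, 1 M-box and 2 TATA boxes. A GC box occurs in 45% of 35116 RefSeq promoters of the same length, an AP-1 match in 4.95%, a TEAD match in 14%, a SOX match in 16.1%, an M-box in 11.1% and a TATA box in 11.5%. The EGFR window is 75.3% G and C, the MET window 69.3% and the PDGFRB window 59.3%, where the median promoter has 58.7%. These matches describe letters and say nothing of what binds there.

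Genes beside EGFR did not fall with it in WM115 clone 1.1. Of 17 other genes tested that lie within 1 Mb of EGFR, 0 were called, and their log2 differences ran from -0.20 to 0.81 with a median of 0.27. The nearest tested gene on one side, SEC61G, a subunit of the protein channel of the endoplasmic reticulum, had a mean of 114 TPM against 90.1 TPM in WT. On the other side LANCL2 had 13.6 TPM against 10.6 TPM and VOPP1 25.3 TPM against 24 TPM. LANCL2 passed the threshold on p (limma, Benjamini-Hochberg adjusted p = 0.0311) with a log2 difference of 0.32, under the minimum size. Over the 853 genes tested on chromosome 7 the median difference was -0.15, close to the median of -0.12 over all genes. Genes beside EGFR in clone 1.2, where it rose, had a median of 0.30, and 2 of the same 17 were called, namely PSPHP1, listed at 0 in WT and at a mean of 7.48 TPM in the clone, and SEPTIN14 with a log2 difference of 1.01. The neighbours of EGFR, and those of MET, PDGFRB and FGFR1, were looked at after the receptors' values were known.

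**Figure D3:**
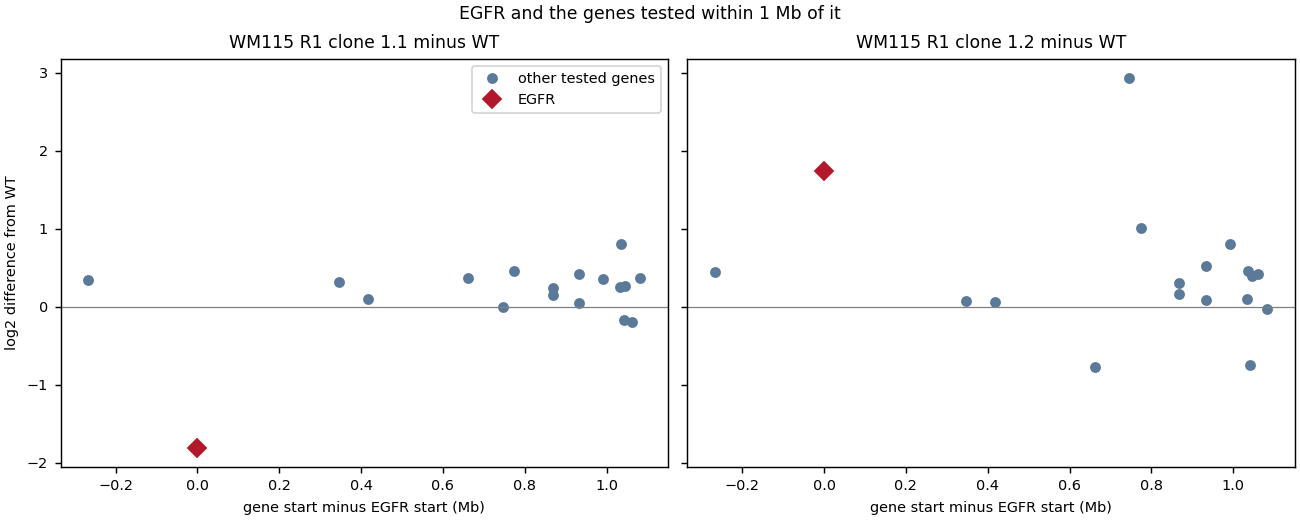
Log2 difference from WT of EGFR (red diamond) and of 17 other genes tested within 1 Mb (blue circles) in WM115 clones 1.1 and 1.2, against the distance of each gene's start from that of EGFR in Mb. In clone 1.1 EGFR lies at -1.81 while the other genes lie between -0.20 and 0.81.

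In WM115 clone 4.1 EGFR had 8.66, 7.35 and 5.26 TPM, each above the highest WT library. The gain of EGFR there was 1.12 ± 0.298 (SE; limma, Benjamini-Hochberg adjusted p = 0.0115). Of the clone's libraries 2 had a low mitochondrial share, a side without any WT library. With the mitochondrial side as a term the difference was 0.97 (limma, Benjamini-Hochberg adjusted p = 0.059). Without library 1 of the clone it was 0.98 (limma, Benjamini-Hochberg adjusted p = 0.0617). Neither was called. Among libraries of high share alone, with 1 library of the clone, it was 0.78. Clone 4.2 had 5.97, 3.75 and 5.26 TPM, also above WT in every library, with a difference of 0.69 that was not called. Clone 1.3 had 3.45, 10.8 and 2.46 TPM and overlapped WT.

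EGFR also rose in both R1 clones of A375. WT libraries had 5.13, 5.02, 2.46 and 4.64 TPM, those of clone 1.1 had 7.85, 10.7 and 13.1 TPM, and those of clone 1.2 had 11.5, 12.8, 11.6 and 14.2 TPM. No library of either clone overlapped WT. The log2 difference was 1.13 ± 0.227 in clone 1.1 (SE; limma, Benjamini-Hochberg adjusted p = 0.0187) and 1.38 ± 0.210 in clone 1.2 (SE; limma, Benjamini-Hochberg adjusted p = 0.000419). Among libraries of low mitochondrial share alone, 2 per clone and 3 of WT, the differences were 0.92 (limma, Benjamini-Hochberg adjusted p = 0.378) and 1.14 (limma, Benjamini-Hochberg adjusted p = 0.0587). With the mitochondrial side as a term they were 1.16 and 1.45, both called. The call in clone 1.1 ended without WT library 3 (0.94; limma, Benjamini-Hochberg adjusted p = 0.05002), clone library 2 (1.11; adjusted p = 0.102) or clone library 3 (0.98; adjusted p = 0.115). The R4 clones of A375 overlapped WT, at 1.92 to 3.67 TPM in clone 4.1 and 3.46 to 5.21 TPM in clone 4.2.

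The transcripts behind these increases differed between the A375 clones. EGFR-201, which spans the whole gene from 55019101 to 55211628, had 3, 2.82, 1.77 and 3.12 TPM in WT and 1.87, 2.63 and 3.63 TPM in clone 1.1, so that these groups overlapped. In clone 1.2 it had 8.15, 6.68, 7.5 and 8.55 TPM, all above WT. All other EGFR transcripts together had 0.692 to 2.2 TPM in WT, 5.98 to 9.48 TPM in clone 1.1 and 3.3 to 6.09 TPM in clone 1.2. EGFR-201 thus made up 25.3% of EGFR in clone 1.1 against 63.5% in WT and 62.1% in clone 1.2, with no overlap between the libraries of clone 1.1, at 23.8% to 27.7%, and those of WT, at 56.2% to 71.9%. One of the other transcripts, EGFR-202, ends at 55168635, upstream of the exons for the kinase domain, and had 0.738, 4.61 and 2.34 TPM in clone 1.1. It was at 0 in every library of clone 1.2 and had a mean of 0.137 TPM in WT. Such shares are estimates for overlapping transcripts and were not tested. In WM115 clone 1.1 the remaining EGFR signal was given whole to 1 transcript in 4 of the 5 libraries, EGFR-204 in library 1, EGFR-201 in library 2 and EGFR-206 in libraries 3 and 4.

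**Figure D4:**
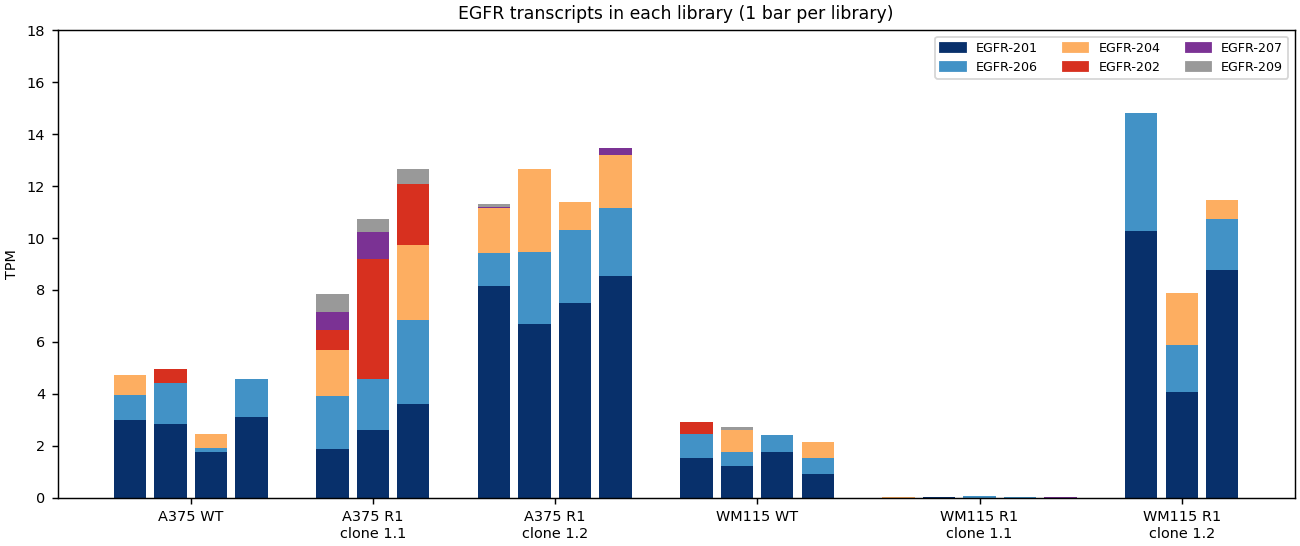
TPM of 6 EGFR transcripts, stacked in 1 bar per library, for WT cells and the R1 clones of both lines. The dark blue EGFR-201 is of like height in A375 WT and clone 1.1, where the other transcripts make up the difference, and it leads in clone 1.2 of both lines; WM115 clone 1.1 is near 0.

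ERBB2, the partner receptor of the EGFR family that has no ligand of its own (chromosome 17, 39687914 to 39730426), varied little. It ranged from 20.9 to 57.2 TPM in A375 and from 20.9 to 43.9 TPM in WM115. Its 4 libraries in A375 clone 1.2 had 51, 50.8, 46.7 and 57.2 TPM and lay above all WT libraries, at 28.7 to 44.1 TPM, but the log2 difference of 0.56 was not called (limma, Benjamini-Hochberg adjusted p = 0.155). In no clone was its difference from WT as large as 1.

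AXL, a receptor of the TAM family that binds GAS6 (ENSG00000167601, chromosome 19, 41219203 to 41261766, plus strand), had a higher mean than WT in every clone of both lines. In A375 clone 1.2 the libraries had 259, 349, 269 and 348 TPM, and all lay above the WT libraries at 123, 78.4, 79.8 and 177 TPM. The mean was 2.68-fold higher, with a log2 difference of 1.48 ± 0.295 (SE; limma, Benjamini-Hochberg adjusted p = 0.00401). With the mitochondrial side as a term it was 1.56 (limma, Benjamini-Hochberg adjusted p = 0.00285), and among libraries of low share alone 1.32 (limma, Benjamini-Hochberg adjusted p = 0.269). In this clone the 8 melanocytic markers summed to 448 to 522 TPM against 687 to 813 TPM in WT. Most of that sum was SOX10 alone, at 406 to 473 TPM in the clone and 630 to 706 TPM in WT. The 5 fibroblast markers summed to 9.63 to 13.4 TPM against 2.45 to 5.29 TPM in WT. COL1A2 was under 0.1 TPM in each library of the clone. The part of these markers in the result was not tested. Clones 1.1, 4.1 and 4.2 overlapped WT, with AXL differences of 0.48 to 0.56 that were not called.

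In WM115 the WT libraries had 44.6, 58.5, 144 and 33.8 TPM of AXL, and library 3, the highest, also had the highest NGFR and the lowest MITF (60.5 TPM) of the WT libraries. Clone 1.1 had 122, 179, 223, 164 and 87.9 TPM, and clone 4.2 had 151, 138 and 195 TPM. Both overlapped WT only through that WT library. The log2 difference was 1.29 ± 0.400 in clone 1.1 (SE; limma, Benjamini-Hochberg adjusted p = 0.0269) and 1.40 ± 0.456 in clone 4.2 (SE; limma, Benjamini-Hochberg adjusted p = 0.0366). Without WT library 3 the differences were 1.71 and 1.82, and then clone 1.2, at 1.55 (limma, Benjamini-Hochberg adjusted p = 0.0156), and clone 4.1, at 1.49 (limma, Benjamini-Hochberg adjusted p = 0.0147), were called too. Leaving out WT library 1, 2 or 4 instead ended both calls, as did leaving out clone library 2, 3 or 4 in clone 1.1 and each clone library in clone 4.2, over a range of 1.02 to 1.502. With the mitochondrial side as a term neither was called, at 1.085 in clone 1.1 (limma, Benjamini-Hochberg adjusted p = 0.122) and 1.28 in clone 4.2 (limma, Benjamini-Hochberg adjusted p = 0.0648). Among libraries of high share alone neither was called, at 0.996 (limma, Benjamini-Hochberg adjusted p = 0.354) and 1.44 (adjusted p = 0.143). Clone 1.2 had 256, 94 and 96.7 TPM, with a difference of 1.13 that was not called, also without library 3 of that clone (1.36; limma, Benjamini-Hochberg adjusted p = 0.125). Clone 1.3 had 89.3, 120 and 39.3 TPM and was not called.

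AXL has a pair of RefSeq starts, and the deposited transcripts begin at both, which is why both windows are shown with the same motifs in capitals.
AXL upstream start, chr19:41218973-41219272, plus strand: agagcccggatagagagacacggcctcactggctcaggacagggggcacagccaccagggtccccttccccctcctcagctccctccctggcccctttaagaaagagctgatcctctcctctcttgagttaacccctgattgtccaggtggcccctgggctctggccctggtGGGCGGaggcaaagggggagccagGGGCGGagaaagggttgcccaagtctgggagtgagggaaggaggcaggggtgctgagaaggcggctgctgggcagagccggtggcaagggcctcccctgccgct
AXL downstream start, chr19:41226505-41226804, plus strand: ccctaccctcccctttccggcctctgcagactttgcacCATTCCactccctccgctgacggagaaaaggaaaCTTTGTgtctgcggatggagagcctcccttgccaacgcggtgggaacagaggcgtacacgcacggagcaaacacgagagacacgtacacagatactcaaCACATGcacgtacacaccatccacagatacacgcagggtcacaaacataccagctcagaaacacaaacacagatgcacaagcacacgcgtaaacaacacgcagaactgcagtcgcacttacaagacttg
The upstream window holds 2 GC boxes and is 66% G and C. The downstream window is 53.7% G and C, holds no GC box, and has 1 match each to the TEAD motif (CATTCC on this strand), the SOX motif (CTTTGT) and the M-box (CACATG). AXL-201 and AXL-202, which begin at the upstream start, made up 36.8% to 40.8% and 35.8% to 43% of AXL in the group means, and AXL-203, which begins at the downstream start, 19.1% to 25.5%. In A375 AXL-203 had a mean of 27 TPM in WT and 65.2 TPM in clone 1.2, and AXL-201 44.4 and 120 TPM, so that transcripts from both starts were higher in that clone. The share of AXL-203 was 23.4% in WT and 21.1% in the clone, with overlapping ranges.

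MET (ENSG00000105976, chromosome 7, 116672390 to 116798386, plus strand) was higher in the R1 clones of A375 by just under the minimum size of a call. WT had 32.7, 29.1, 29.5 and 38.2 TPM, clone 1.1 had 45.2, 59.5 and 62.7 TPM, and clone 1.2 had 66.7, 58.7, 56.7 and 78.4 TPM. No library of these clones overlapped WT. The log2 differences were 0.76 ± 0.145 in clone 1.1 (SE; limma, Benjamini-Hochberg adjusted p = 0.0129) and 0.98 ± 0.134 in clone 1.2 (SE; limma, Benjamini-Hochberg adjusted p = 0.000153). Both passed the threshold on p and neither the minimum of 1, which clone 1.2 reached with a pseudocount of 0.1 TPM (1.004). The R4 clones had 35.7 to 43 TPM and were not called, although all libraries of clone 4.2 lay above WT.

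In WM115 MET was called in clone 1.2 alone, with 22.9, 9.03 and 13.6 TPM against 6.58, 4.87, 4.67 and 11.3 TPM in WT. The groups overlapped. Its log2 difference was 1.02 ± 0.327 (SE; limma, Benjamini-Hochberg adjusted p = 0.0315), and the call ended without library 3 of the clone (1.05; limma, Benjamini-Hochberg adjusted p = 0.106) or library 1 (0.70; adjusted p = 0.145), and without WT library 1, 2 or 3 (0.89 to 1.03; adjusted p = 0.0574 to 0.0856). Of 7 other genes tested within 1 Mb of MET, 2 were called in clone 1.2, CAV1 (1.76) and TES (1.01), and the median was 0.54. Clone 1.1 had 2.15 to 5.35 TPM, with a difference of -0.69 that was not called. The lines also differed in the MET transcripts listed: MET-207 averaged 4.7% to 11.3% of MET in the groups of A375 and at most 0.3% in those of WM115, whereas MET-204 averaged 14.8% to 23.3% in WM115 and at most 3.5% in A375.

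PDGFRB, the platelet-derived growth factor receptor of mesenchymal cells (ENSG00000113721, chromosome 5, 150113837 to 150155872, minus strand), followed EGFR in the WM115 R1 clones. WT had 2.22, 2.22, 1.43 and 1.44 TPM. Clone 1.2 had 5.86, 3.95 and 11.4 TPM, all above WT, and the highest value was in library 3. The summed fibroblast markers, among which PDGFRB is not counted, were 474 to 834 TPM in this clone and 458 to 671 TPM in WT, mostly COL1A2, with 4 of 5 at a mean of at least 1 TPM in the clone and 2 in WT. The 4 endothelial markers summed to 3.11 to 16.5 TPM against 0.581 to 3.43 TPM in WT, highest in library 3, and the 8 melanocytic markers to 29.4 to 936 TPM against 1044 to 2890 TPM. The part of these markers in the results for EGFR and PDGFRB in this clone was not tested. The fitted log2 difference was 1.42 ± 0.228 (SE; limma, Benjamini-Hochberg adjusted p = 0.00057), and without library 3 it was 1.06 (limma, Benjamini-Hochberg adjusted p = 0.00428). Of 26 other genes tested within 1 Mb, 4 were called in this clone (ABLIM3, SYNPO and SMIM3 higher, CD74 lower), with a median of 0.09. Clone 1.1 had 0.819, 0.546, 0.656, 0.721 and 0.691 TPM, all below WT, with a difference of -0.73 ± 0.201 (SE; limma, Benjamini-Hochberg adjusted p = 0.0143) that missed the minimum size, and of -1.27 with a pseudocount of 0.1 TPM. In the R4 clones of WM115 it had 1.78 to 2.91 TPM, and in A375 it had 2.92 to 10.2 TPM with no clone called. Transcripts annotated as protein coding held a median of 65.6% of its TPM in A375 and 72.2% in WM115.

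PDGFRA, the companion receptor on chromosome 4 (54229097 to 54298247), was near the limit of the test, with a TPM of at least 1 in 8 of 18 libraries of A375 and 9 of 21 of WM115. Its highest group mean was 2.37 TPM, in A375 clone 4.1, whose libraries had 2.41, 2.4, 3.34 and 1.35 TPM against 0.666 to 1.57 TPM in WT. That difference of 0.62 was not called (limma, Benjamini-Hochberg adjusted p = 0.208). In WM115 it ranged from 0.103 to 2.81 TPM. The lowest values were in clone 1.1, at 0.103 to 0.622 TPM, which overlapped WT at 0.317 to 1.28 TPM. At this WT level a complete loss would stay under the minimum size, so a lower call against WT was not possible in WM115. Clone 4.2 had 2.81, 1.61 and 1.36 TPM, above every WT library, with a difference of 0.69 that was not called (limma, Benjamini-Hochberg adjusted p = 0.0752). Transcripts annotated as protein coding held 22.8% to 95.4% of PDGFRA TPM in the libraries of A375 (median 75%). In WM115 they held 0% to 100% (median 63.2%).

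FGFR1, a fibroblast growth factor receptor (ENSG00000077782, chromosome 8, 38400215 to 38468834, minus strand), was called in both R4 clones of WM115 and in no other clone. WT libraries had 10.3, 11.5, 15.6 and 9.17 TPM, clone 4.1 had 34, 33.7 and 22.3 TPM, and clone 4.2 had 32.6, 24.4 and 26.2 TPM. All 6 libraries of the R4 clones lay above WT. FGFR1 differed from WT by 1.29 ± 0.215 in clone 4.1 (SE; limma, Benjamini-Hochberg adjusted p = 0.00044) and 1.198 ± 0.215 in clone 4.2 (SE; limma, Benjamini-Hochberg adjusted p = 0.00114). Both calls held with the mitochondrial side as a term, at 1.08 (limma, Benjamini-Hochberg adjusted p = 0.00433) and 1.09 (adjusted p = 0.00215). Among libraries of high share alone clone 4.2 gave 1.08 (limma, Benjamini-Hochberg adjusted p = 0.0338), and the single library of clone 4.1 gave 0.90 (limma, Benjamini-Hochberg adjusted p = 0.205). The 24 other genes tested within 1 Mb of FGFR1 had a median difference of 0.32 in both clones, from -0.39 to 1.33 with 1 called (PLPP5) in clone 4.1 and from -0.25 to 0.95 with 0 called in clone 4.2. Over all genes of chromosome 8 the median was 0.10 in clone 4.1 and 0.09 in clone 4.2. In WM115 clone 1.1, where FGFR1 had a difference of 0.58 (limma, Benjamini-Hochberg adjusted p = 0.0339) and was not called, that chromosome's median was 0.41.

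In A375 FGFR1 was highest in clone 1.1, with 30.8, 53.8 and 22.6 TPM against 18.1, 11.7, 16.4 and 20.1 TPM in WT. These groups did not overlap. The log2 difference of 0.999 ± 0.226 (SE; limma, Benjamini-Hochberg adjusted p = 0.0422) fell short of 1 and reached 1.04 with a pseudocount of 0.1 TPM. Clone 1.2 had 12.7 to 15.5 TPM, and the R4 clones had 20.6 to 28.6 TPM, above every WT library, with differences of 0.52 and 0.57 that were not called.

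IGF1R (ENSG00000140443, chromosome 15, 98648539 to 98964530, plus strand) had no call against WT, yet in WM115 its R1 clones lay below WT and its R4 clones above it. WT had 38.7, 34.9, 28.1 and 28.4 TPM. Clone 1.1 had 14.4 to 23.9 TPM and clone 1.2 had 25.8, 14.7 and 14.9 TPM, both under the lowest WT library, with differences of -0.63 (limma, Benjamini-Hochberg adjusted p = 0.0177) and -0.82 (limma, Benjamini-Hochberg adjusted p = 0.0102). Without library 3 of clone 1.2 the latter was -0.70 and missed the threshold on p (limma, Benjamini-Hochberg adjusted p = 0.0799). Clone 4.1 had 39, 44.3 and 39.8 TPM and clone 4.2 had 55.4, 40.8 and 39.8 TPM, all above the highest WT library, with differences of 0.34 and 0.46 that did not pass. The median over chromosome 15 was -0.39 in clone 1.1 and 0.03 in clone 1.2. In A375 clone 4.1 IGF1R had 195, 133, 132 and 131 TPM, above all WT libraries at 71.5 to 116 TPM, with a difference of 0.61 where the chromosome had 0.18. Of the IGF1R signal, protein-coding transcripts held a median of 53.3% in A375 and 62.8% in WM115, and IGF1R-208, annotated as a retained intron, 21.2% to 30.1% in the group means, so the gene level counts more than the message that makes the receptor.

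NGFR (ENSG00000064300, chromosome 17, 49495293 to 49515017, plus strand) had the widest spread within groups, which left large differences uncalled. In A375 clone 4.1 it had 1.46, 1.21, 0.746 and 2.11 TPM, all below the WT libraries at 15.4, 3.39, 4.24 and 30.6 TPM. The log2 difference was -2.16 ± 0.582 (SE; limma, Benjamini-Hochberg adjusted p = 0.0888). These 2 groups are the ones whose equal replicate numbers deviate together, and with the replicate number as a block the same difference was called (SE 0.346; limma, Benjamini-Hochberg adjusted p = 0.00662). That block raised the count of all genes called in this clone from 109 to 246. Without WT library 2 the difference was -2.58 and also called (limma, Benjamini-Hochberg adjusted p = 0.0368). Clones 1.1 and 4.2 of A375 had 1.09 to 9.63 TPM and clone 1.2 had 14 to 34.7 TPM, and all of them overlapped WT.

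In WM115 clone 4.1 the libraries had 346, 861 and 236 TPM of NGFR, and in clone 1.1 they had 175 to 426 TPM. WT had 50.6, 102, 277 and 41.6 TPM, so that both clones overlapped it through WT library 3. The difference in clone 1.1 was 1.60 ± 0.810 (SE; limma, Benjamini-Hochberg adjusted p = 0.168), which was called with only the 2 groups in the fit (limma, Benjamini-Hochberg adjusted p = 0.0316). In clone 4.1 it was 2.22 (limma, Benjamini-Hochberg adjusted p = 0.0872). It was called without WT library 3 (2.77; limma, Benjamini-Hochberg adjusted p = 0.0401) and also when library 3 of clone 1.2 was left out of the fit (limma, Benjamini-Hochberg adjusted p = 0.0382). Clone 1.2 had 48.6, 78.9 and 3.67 TPM, the lowest being library 3. Its difference of -1.75 was not called (limma, Benjamini-Hochberg adjusted p = 0.178) and was -0.50 without that library (adjusted p = 0.772). Clone 1.3 had 52.6, 35.2 and 2.31 TPM. As these are bulk libraries, fewer cells with NGFR and less NGFR per cell cannot be told apart, and this holds for every receptor.

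Clones labelled with the same deletion differed from each other in several receptors. Between WM115 clones 1.2 and 1.1, 4 of 9 receptors were called (11.8% of all genes tested). EGFR differed by 3.55 ± 0.285 (SE; limma, Benjamini-Hochberg adjusted p = 1.4e-07), PDGFRB by 2.15 (limma, Benjamini-Hochberg adjusted p = 2e-06) and MET by 1.71 (limma, Benjamini-Hochberg adjusted p = 0.000467), each higher in clone 1.2. NGFR was lower in clone 1.2, by a log2 difference of -3.35 (limma, Benjamini-Hochberg adjusted p = 0.00675), and without its library 3 the difference was -2.10 (limma, Benjamini-Hochberg adjusted p = 0.0885). The other calls stood without that library.

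Between A375 clones 1.2 and 1.1, 2 of 9 receptors were called (6.16%). NGFR was higher in clone 1.2 by 2.54 (limma, Benjamini-Hochberg adjusted p = 0.0136), at 14 to 34.7 TPM against 1.09 to 7.78 TPM, and FGFR1 was lower by -1.24 (limma, Benjamini-Hochberg adjusted p = 0.00167). Both calls ended without library 2 of clone 1.1, at 2.30 and -0.91. Between A375 clones 4.2 and 4.1, 1 of 9 was called (2.23%), PDGFRA with a difference of -1.05 (limma, Benjamini-Hochberg adjusted p = 0.0155) that lost its call without library 3 of clone 4.1 (-0.92) or library 2 (-1.01) or 3 (-0.95) of clone 4.2. Between WM115 clones 4.2 and 4.1 it was none of 9 (2.63% of all genes), with 1 receptor, ERBB2, at an unadjusted p under 0.05 in limma.

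With the clone as the unit, 8 clones whose labels give 1 region were compared as R4 against R1, with the line as a covariate. Of the 9 receptors 0 were called, as of all genes (0%), while 1 receptor and 754 of 18099 genes had an unadjusted p under 0.05 in limma. IGF1R was that receptor, with a difference of 0.76 ± 0.188 (SE; limma, Benjamini-Hochberg adjusted p = 0.984), followed by FGFR1 at 0.53 and PDGFRA at 0.41. EGFR had -0.25 with an SE of 0.765. Against WT of A375, EGFR differed by 1.13 and 1.38 in the R1 clones and by -0.48 and 0.09 in the R4 clones. In WM115 it differed by -1.81 and 1.74 in the R1 clones, on opposite sides of WT, and by 1.12 and 0.69 in the R4 clones.

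Other genes of these pathways were read from 3 lists. Of 26 ligands, 15 were tested in A375 and 17 in WM115. Of the 15 in A375, 5 were called in at least 1 clone, where 4.97% of all genes tested were. In A375 clone 1.2, 4 of 15 rose and 0 fell, where 4.01% of all genes were called, 429 higher and 240 lower. NRG1, a ligand of ERBB3 and ERBB4, rose from 0.826 ± 0.741 TPM (SD, n = 4) in WT to 12.3 ± 2.96 TPM (SD, n = 4). PDGFB rose from 0.234 ± 0.139 to 6.56 ± 2.42 TPM, PDGFA from 2.19 ± 0.361 to 10.5 ± 3.26 TPM, and PDGFC from 3.59 ± 1.48 to 8.18 ± 1.82 TPM. The EGFR ligand AREG rose in A375 clone 4.2, to 10.3 ± 6.92 TPM (SD, n = 3) from 1.69 ± 0.517 TPM in WT. Median differences of the ligands were 0.36 in A375 clone 1.2 and between -0.17 and 0.13 in the other A375 clones, where all genes had -0.02 to 0.06.

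In WM115, 12 of 17 ligands were called in at least 1 clone, where 17.9% of all genes tested were. By clone there were 1 higher and 1 lower in clone 1.1 (4.88% of all genes called), and 5 and 1 in clone 1.2 (7.61%). There were 3 and 2 in clone 4.1 (7.57%), and 5 and 1 in clone 4.2 (6.6%). PROS1, a ligand of the TAM receptors TYRO3 and MERTK, fell in both R4 clones, from 27.8 ± 9.76 TPM (SD, n = 4) in WT to 3.27 ± 0.646 TPM in clone 4.1 and 1.67 ± 0.553 TPM in clone 4.2 (SD, n = 3 each). PDGFB rose in clone 1.1 (log2 difference 1.08), clone 4.1 (2.41) and clone 4.2 (1.65), and EPGN, a ligand of EGFR, was listed at 0 in all WT libraries and had 7.83 ± 2.67 TPM (SD, n = 3) in clone 4.2. In clone 1.2 FGF5, a fibroblast growth factor, had 24.9 ± 13.9 TPM (SD, n = 3) against 0.114 ± 0.103 TPM in WT, and BDNF, a neurotrophin, rose by 2.20. Without library 3 of that clone these differences were 3.99 and 1.77 and still called. The named ligands bind different receptors of the 10 or their relatives.

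Of 18 related receptors, 2 of 12 tested were called in at least 1 clone of A375 (4.97% of all genes) and 5 of 13 in WM115 (17.9%). FLT1, a receptor of vascular endothelial growth factor, fell in clone 1.2 of both lines, by -2.54 in A375 and -1.54 in WM115, and rose in WM115 clones 1.1 (1.38) and 4.1 (1.80). SORT1, the sortilin receptor that pairs with NGFR to bind pro-neurotrophins, fell in WM115 clones 4.1 (-1.72) and 4.2 (-1.49), where FGFR3 rose in clone 4.2 (1.26). ERBB3 fell in WM115 clone 1.2 (-1.21), MERTK rose in WM115 clone 1.1 (1.097) and NTRK3 in A375 clone 4.1 (1.45). Among 20 adaptors and regulators, 19 were tested in each line. IRS1, the adaptor of IGF1R, rose in clone 1.2 of A375 (1.57) and of WM115 (1.52). ERRFI1, an inhibitor of EGFR that its signal induces, rose in WM115 clones 4.1 (2.08) and 4.2 (2.22), while LRIG1, another inhibitor of that family, rose in clone 1.2 (2.25). In WM115 clone 1.2 the calls of FLT1, ERBB3 and LRIG1 ended without library 3, with -0.68, -0.33 and 1.74 (limma, Benjamini-Hochberg adjusted p = 0.346, 0.356 and 0.052), whereas that of IRS1 stood (1.27).

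GAB2, a docking adaptor, rose in A375 clone 1.2 (1.28) and fell in WM115 clone 4.2 (-1.38), and SOCS3 rose in WM115 clone 4.1 (1.24). Of the 19 adaptors and regulators tested in each line, 2 were called in at least 1 clone of A375 (4.97% of all genes) and 7 in WM115 (17.9%). The adaptor list had 2 calls higher in A375 clone 1.2, where 4.01% of all genes were called. In WM115 it had 2 higher in clone 1.2 (7.61%), 2 higher and 2 lower in clone 4.1 (7.57%), and 1 higher and 2 lower in clone 4.2 (6.6%). Adaptors as a list had median differences between -0.07 and 0.14 over the 9 clones, where all genes had -0.12 to 0.07.

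**Figure D5:**
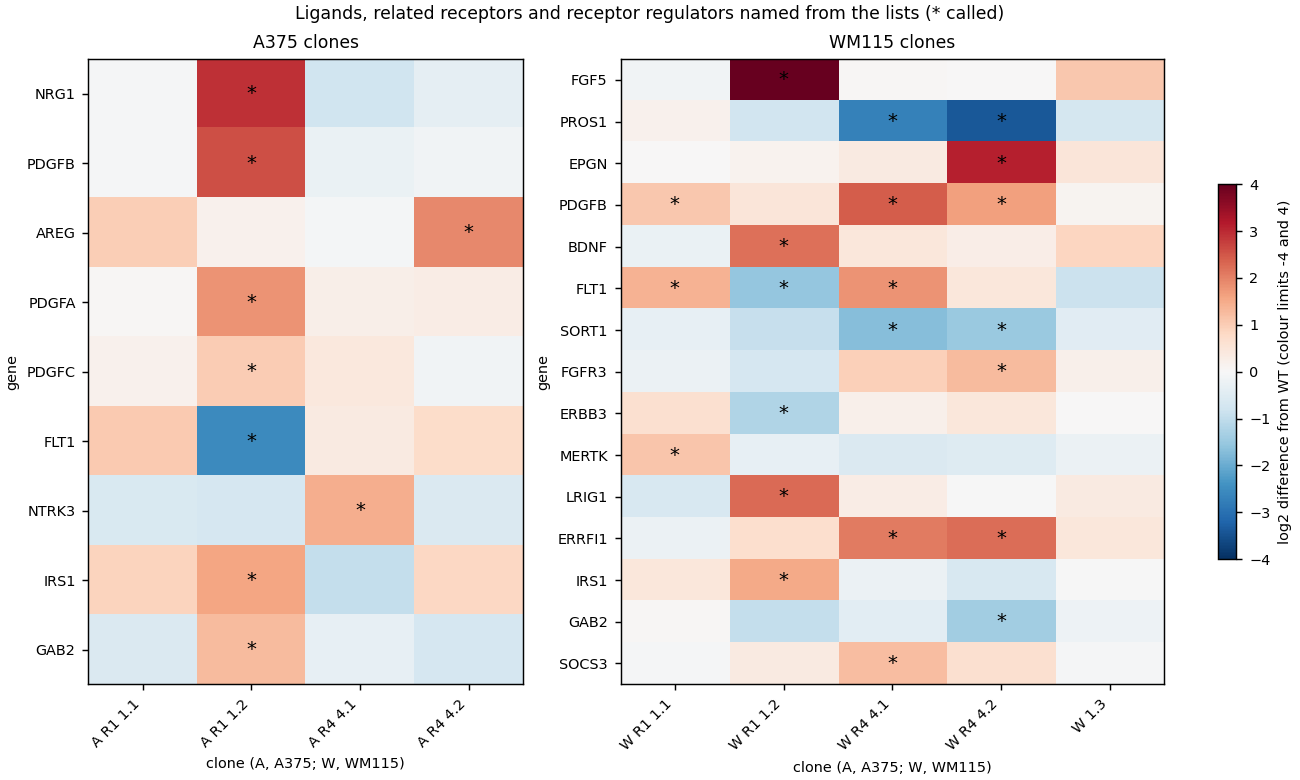
Log2 difference from WT of the ligands, related receptors and regulators named from the 3 lists, in 4 clones of A375 and 5 of WM115. Red is higher and blue lower than WT, stars mark calls, and colours stop at 4, which FGF5 in WM115 clone 1.2 exceeds at 4.36; PROS1 is lower in both R4 clones of WM115 and PDGFB higher in A375 clone 1.2 and in 3 clones of WM115.

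Genes whose level ran most like that of a called receptor were listed by Pearson's r of log2(TPM + 1) over the libraries of a line, as a description without a test. Libraries of 1 clone are not independent points, so an r this high can rest on a single clone. In A375, over 18 libraries, AXL ran most like DLC1 (r = 0.97), SRGAP1 (0.95) and PDLIM5 (0.93), and EGFR like IL18R1 (0.91), TMC7 (0.90) and CPPED1 (0.89). In WM115, over 21 libraries, EGFR ran most like SRGN (0.97), SIRPB1 (0.96) and NNMT (0.95), PDGFRB like CLDN11, CRMP1 and SAMD9L (0.94 each), and MET like C1orf115 (0.83), SAMD9L (0.82) and SRGN (0.82). SRGN and SAMD9L thus appear beside 2 of these receptors each. FGFR1 ran most like CDKN1C (0.93), RPS6KA1 (0.92) and TIMP1 (0.92), and AXL like C12orf75, ILF2 and ANXA2 (0.92 each).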

How the data were processed

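RNA of 39 libraries from 11 groups was measured; per the labels' protocols it was total RNA with poly-A selection. The authors deposited TPM (transcripts per 1000000) for genes and for transcripts, and the submitters' processing notes name DRAGEN and GRCh38 without saying which step DRAGEN did; annotation and strand setting are not given in the sources used here. Each library sums to 999999.9 to 1000000.1 TPM, so depth is unknown and precision comes from replicates alone. The gene table has 60871 lines, of which 200 repeat a gene with identical values, and each table has 6 columns of values that match no sample and were not used. Gene positions are those of GENCODE 29.

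Genes with at least 1 TPM in at least 3 libraries were tested with limma 3.58.1 in R 4.3.3 on log2(TPM + 1), with all groups of a line in 1 fit, 1 coefficient a group and a variance trend. WT against WT used all libraries, and R4 against R1 used clone means. A call needs a Benjamini-Hochberg adjusted p under 0.05 over all genes tested and a log2 difference of at least 1 in size. The fit was tested on simulated data. Groups follow the labels. Equal replicate numbers were taken to pair libraries where every pair's deviations correlated above 0.1, which held for A375 clone 4.1 and WT alone (r from 0.326 to 0.776 over 4 pairs); the labels do not state a pairing. Libraries of a line were also split by mitochondrial share, at 2.5% in A375 and 7.5% in WM115, after the values were seen.

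The 10 receptors, the lists and the rules were chosen with earlier results of these data known. Named besides the receptors were, in each line, up to 5 genes per list called in a clone, by the largest difference, and for each receptor called the 3 genes of highest r. Promoters are RefSeq's, matched by symbol for 8 of the 10 receptors, with 11 starts; NGFR and FGFR1 have no sequence here. Alternatives changed the pseudocount, the filter, the scaling, the variance model, the libraries fitted and the block, and were partly chosen after seeing the data (no minimum size, and leaving out library 3 of WM115 clone 1.2 throughout).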

Additional observations from a re-analysis of the deposited data

Results flagged for a closer look

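Of 46 combinations of a receptor and a group of 4 or more libraries with values not all equal, 2 had a library far from the rest. Chance gives about 1 in 20. KIT was at 0.026 TPM in replicate 4 of A375 clone 1.2 and at 0 in the other libraries of that clone. With 3 libraries at 0, any value above 0 would be flagged, so that rate does not apply to KIT. IGF1R was at 195.3 TPM in replicate 1 of A375 clone 4.1, where the others had 131 to 133 TPM.

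Clones that share a labelled deletion and a line differed in 7 of 36 tests of a receptor, by the limma test of the difference itself. Of all genes tested, 6.16% were called between the A375 R1 clones and 2.23% between the A375 R4 clones. The share was 11.8% between the WM115 R1 clones and 2.63% between the WM115 R4 clones. Between A375 clones 1.2 and 1.1 the log2 difference was 2.543 for NGFR and -1.24 for FGFR1. PDGFRA had -1.054 between A375 clones 4.2 and 4.1. Between WM115 clones 1.2 and 1.1 the differences were 3.548 for EGFR, 2.155 for PDGFRB, 1.714 for MET and -3.347 for NGFR.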

How the results depend on the processing

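Over all comparisons, 23 receptor differences were called. Of these, 8 were called under every alternative in which the receptor was tested, 15 lost the call under at least 1, and 0 changed sign. A receptor that a filter removed was not counted as losing its call. This applies to EGFR and PDGFRB in WM115 at a mean TPM of at least 5. Of 112 not called, 17 were called under at least 1 and 29 turned sign. The receptors called of 9 moved as follows. In A375 clone 1.1 (1) the count was 3 with no minimum size, 2 with a pseudocount of 0.1 or median-of-ratios scaling, 0 with only the 2 groups fitted, low mitochondrial share or the replicate block, and 0 to 2 leaving out 1 library. In A375 clone 1.2 (2) it was 3 with no minimum size or a pseudocount of 0.1 and 0 at low mitochondrial share. In A375 clone 4.1 (0) it was 1 with the block and 0 to 1 leaving out 1 library. In WM115 clone 1.1 (2) it was 5 with no minimum size, 3 with only the 2 groups fitted, the block or a pseudocount of 0.1, 1 at a mean TPM of at least 5, with no filter, with the mitochondrial term or at high share, and 1 to 2 leaving out 1 library. In WM115 clone 1.2 (3) it was 4 with no minimum size or quantile normalization, 2 with no filter, only the 2 groups fitted or high share, 1 at a mean TPM of at least 5, which removes low genes from the test, and 0 with the block. In WM115 clone 4.1 (2) it was 3 with only the 2 groups fitted, 1 at that filter or with the mitochondrial term, 0 at high share, and 1 to 4 leaving out 1 library. In WM115 clone 4.2 (2) it was 1 with no filter, the mitochondrial term or high share, and 1 to 2 leaving out 1 library. Between clones it was 0 to 4 leaving out 1 library for A375 R1 (2; 3 with quantile normalization), 0 at the filter or with the block and 0 to 1 leaving out 1 library for A375 R4 (1), and 2 at the filter, 3 with the block and 5 with no minimum size or a pseudocount of 0.1 for WM115 R1 (4). Where no value above shows it, the cause was not tested.

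Genes called in all ranged, over alternatives, from 1 to 173 in A375 clone 1.1 (122), 124 to 1423 in clone 1.2 (669), 37 to 246 in clone 4.1 (109) and 15 to 107 in clone 4.2 (79). In WM115 they ranged from 371 to 3732 in clone 1.1 (829), 127 to 3839 in clone 1.2 (1293; 501 without library 3), 139 to 4110 in clone 4.1 (1286), 568 to 3449 in clone 4.2 (1122) and 1 to 321 in clone 1.3 (105). Between groups they ranged from 2214 to 9105 for WT against WT (3737), 495 to 2202 for A375 R1 clones (1028), 126 to 696 for A375 R4 clones (373), 1046 to 6031 for WM115 R1 clones (1998) and 195 to 1148 for WM115 R4 clones (447). The share of these calls that were higher moved under quantile normalization from 25.4% to 39.8% in A375 clone 1.1, 64.1% to 51.9% in A375 clone 1.2, 25% to 43.4% in WM115 clone 1.1, 42.3% to 54.5% in WM115 clone 4.1, 38.2% to 50.9% in WM115 clone 4.2, 76.1% to 57.5% between A375 R1 clones and 72.4% to 56.8% between WM115 R1 clones. Median-of-ratios scaling gave 39.3%, 56.4% and 50.4% in WM115 clones 1.1, 4.1 and 4.2.

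The replicate number paired libraries for A375 clone 4.1 alone, where the block changed the call of NGFR and no other. Elsewhere the libraries share only a number. There the block left 1 gene called in A375 clone 1.1, 127 in WM115 clone 1.2, 15 in A375 clone 4.2 and 1 in WM115 clone 1.3, and ended the calls of EGFR (1.68; limma, Benjamini-Hochberg adjusted p = 0.0617), PDGFRB (adjusted p = 0.135) and MET (adjusted p = 0.0849) in WM115 clone 1.2. It also ended those of EGFR in A375 clone 1.1 (1.17; limma, Benjamini-Hochberg adjusted p = 0.648), PDGFRA between A375 R4 clones (-1.22; adjusted p = 0.0762) and NGFR between WM115 R1 clones (-3.49; adjusted p = 0.0754). NGFR in WM115 clone 1.1 was called with it (1.75; limma, Benjamini-Hochberg adjusted p = 0.00762). TPM carries no counts, so how far depth limits the low receptors is unknown.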
